A study of Mus musculus with 6 samples.

Results

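The genes described here are 35 genes of the actin cytoskeleton and of its control by serum response factor (SRF). They were chosen by gene symbol, with no measured value as a criterion, though earlier results of these data were known. They comprise 5 actins, 5 calponins and transgelins, 6 genes of myosin II and its regulators, 4 tropomyosins, SRF with 3 cofactors, 7 LIM domain proteins and 4 proteins of actin turnover and bundling. All 35 were found among the 23420 gene symbols of the count table, and 24 of them had enough counts to be tested. The other 11 had from 0 to 82 counts in any culture and are described by their counts alone.

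The eEnd2 line consists of embryonic mouse endothelial cells. All 6 cultures were eEnd2 cells transfected with human Integrin-β1A that carried GFP in its extracellular part, driven by a short human actin beta promoter fragment, sorted for GFP and grown to confluence in medium with 10% fetal calf serum without further treatment. The 3 β1-WT-GFP cultures (WT A, B and C) expressed the wildtype chimera, and the 3 β1-K794Q-GFP cultures (K794Q A, B and C) expressed the chimera with the K794Q change, glutamine for lysine in the cytoplasmic tail, a mimic of acetylation. No untransfected cells were included. The sorted GFP population behind each culture was not named, and nothing said that the cultures of a group came from separate transfections, so p-values measure the spread between these cultures only.

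In most cells, SRF binds a short DNA element called the CArG box in the promoters of actin and contractile genes. Its cofactors Mkl1 and Mkl2 (myocardin-related transcription factors, now named Mrtfa and Mrtfb) are held in the cytoplasm by monomeric actin, so that polymerization of actin releases them to the nucleus. Another family of SRF cofactors, the TCF proteins Elk1, Elk3 and Elk4, serves immediate early genes such as Egr1 and Fos. Endothelial cells use non-muscle myosin II and its activating kinase Mylk to pull on junctions and adhesions, whereas Acta2, Cnn1, Myh11 and Myocd mark differentiated smooth muscle.

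The promoters of 4 genes show the element in question. Srf, Actg1, Cnn2 and Fhl2 were chosen because each holds a CArG box and had its highest level in the same culture, WT C. Chosen in this way, the 4 cannot show whether the box and that culture go together. Shown are the 250 bases before the RefSeq start site (build GRCm38.p6), 5′ to 3′ on the gene's strand, with the box in capitals. Srf lies at chr17:46556163-46556412 on the minus strand and held 2 boxes, Actg1 at chr11:120348496-120348745 on the minus strand, Cnn2 at chr10:79988350-79988599 on the plus strand, and Fhl2 at chr1:43196762-43197011 on the minus strand, the first of its 2 RefSeq promoters.
Srf: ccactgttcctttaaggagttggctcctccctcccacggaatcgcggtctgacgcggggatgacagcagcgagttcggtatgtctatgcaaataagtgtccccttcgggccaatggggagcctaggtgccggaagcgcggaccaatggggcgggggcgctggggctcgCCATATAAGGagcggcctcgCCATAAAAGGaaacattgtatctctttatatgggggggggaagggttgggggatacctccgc
Actg1: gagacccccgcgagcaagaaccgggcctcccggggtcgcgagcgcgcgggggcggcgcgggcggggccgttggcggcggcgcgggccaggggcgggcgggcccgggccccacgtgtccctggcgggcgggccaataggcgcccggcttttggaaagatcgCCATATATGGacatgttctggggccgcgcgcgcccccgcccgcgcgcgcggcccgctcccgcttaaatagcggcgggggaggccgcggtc
Cnn2: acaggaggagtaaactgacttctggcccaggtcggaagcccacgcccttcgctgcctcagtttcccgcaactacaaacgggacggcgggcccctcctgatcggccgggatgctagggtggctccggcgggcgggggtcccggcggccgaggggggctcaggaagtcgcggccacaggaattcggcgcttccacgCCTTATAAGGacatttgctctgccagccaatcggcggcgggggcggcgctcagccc
Fhl2: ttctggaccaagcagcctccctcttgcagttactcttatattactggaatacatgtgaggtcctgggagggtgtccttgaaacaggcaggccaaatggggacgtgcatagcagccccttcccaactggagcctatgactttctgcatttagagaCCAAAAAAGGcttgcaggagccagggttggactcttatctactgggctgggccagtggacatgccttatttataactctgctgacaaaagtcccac

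The box searched was CC, then 6 bases that were each A or T, then GG. Its reverse complement has the same form, so a single search covers both strands. In windows from 250 bases before to 50 bases after the start, 9 of 29 genes with a RefSeq promoter held it (31.0%), against 488 of all 27025 genes with one (1.81%) and 535 of all 32851 promoters (1.63%). Of the tested genes of the set, 5 of 22 held a box (22.7%), against 125 of 8601 of all tested genes with a promoter (1.45%). The 9 genes were Acta1, Actg1, Cnn2, Myl9, Srf, Fhl1, Fhl2, Lima1 and Vil1. Among those not shown above, Acta1 was also highest in WT C. Lima1 was highest in K794Q B, Vil1 in WT B and Fhl1, with few counts, in K794Q C, and Myl9 had no counts. Conversely, Tagln2, Cnn3, Myh9, Myh10, Tpm1, Tpm3, Tpm4, Pdlim5, Pdlim7 and Cfl1 were highest in WT C without a box in these windows. The same held for Acta2, Cnn1 and Tpm2, which had too few counts to be tested. The first base of the box lay 90 bases before the start in Actg1 (position -90), at -56 in Cnn2, at -82 and -62 in Srf, and at -96 and -31 in the 2 promoters of Fhl2. Actb, Actg2, Tagln, Myh11, Myocd and Csrp2 had no entry. SRF targets were among the genes chosen, so the share is a description of the list, and a match of letters does not show binding.

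**Figure D1:**
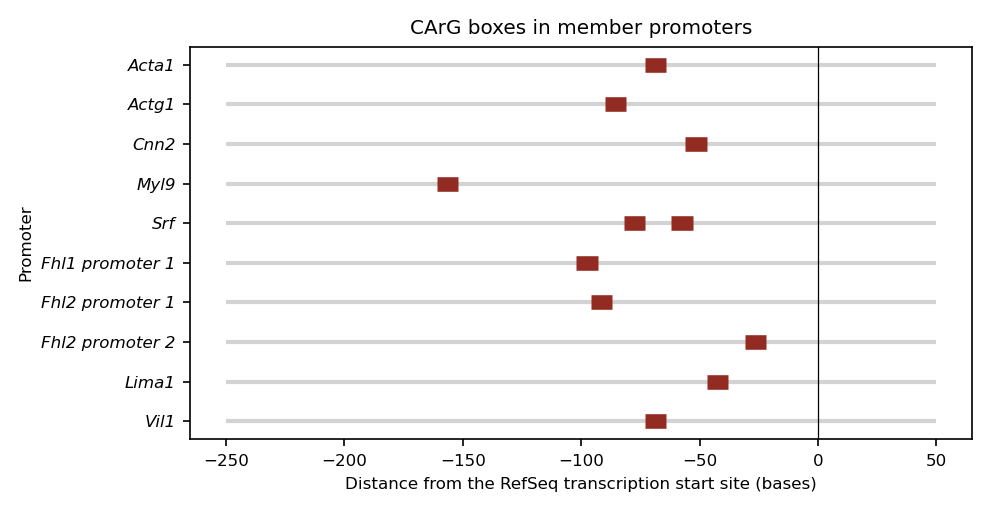
Position of each CArG box (red block) in the promoters that hold one, in bases from the RefSeq start site (x axis), with 1 line per promoter (y axis) and the searched window in grey. All boxes lie before the start, from -161 in Myl9 to -31 in the second Fhl2 promoter.

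The totals of the 6 cultures lay between 9589826 and 15287191 counts, with WT C the deepest. A gene passed both thresholds used here where it changed by 2-fold or more with an unadjusted p no higher than 0.05. Of 11608 tested genes 603 did so (5.19%), with 404 raised (3.48%) and 199 lowered (1.71%) by K794Q, and the adjusted p was 0.05 or less for 21 (0.181%). The sum of 10 endothelial markers lay between 7802 and 8891 CPM (normalized counts, scaled to the library size) in β1-WT-GFP cells and between 6529 and 12465 CPM in β1-K794Q-GFP cells, and all 10 were detected in at least 1 culture. The sum is led by Pecam1 and Cdh5 and covers unequal members. Cldn5, the tight junction claudin, was at 267, 252 and 4.74 CPM in WT A, B and C and at 17.5, 0 and 24.3 CPM in K794Q A, B and C, and the endothelial transcription factor Erg was at 606, 596 and 228 CPM in WT A, B and C and at 383, 519 and 216 CPM in K794Q A, B and C. Both were thus far lower in WT C than in WT A and WT B, and neither passed the test between the groups. The other endothelial markers were mixed. Among the β1-WT-GFP cultures, Tek, Tie1 and Esam were also lowest in WT C, Cdh5, Kdr, Emcn and Eng were highest there, and Pecam1 lay between. Mouse Itgb1, on which reads of the human chimera may be counted in part, was at 733, 915 and 1354 CPM in WT A, B and C and at 1146, 2677 and 1180 CPM in K794Q A, B and C.

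Between the groups, 1 of the 24 tested genes passed both thresholds, Mylk, which was higher in β1-K794Q-GFP cells (4.17%, against 3.48% of all tested genes in that direction). None was lower (against 1.71%), and none reached an adjusted p of 0.05 in edgeR's quasi-likelihood test, while 2 genes, Mylk and Csrp1, had an unadjusted p under 0.05 (8.33%, against 10.2% of all tested genes). DESeq2 also called Mylk alone, where it called 5.99% of all tested genes. The median log2 fold change of the 24 genes was -0.18, against -0.02 over all tested genes. Both counts lie near the shares over all genes.

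Culture WT C stood apart from WT A and WT B. Of the 24 genes, 14 had their highest level of all 6 cultures in WT C (58.3%, against 26.0% of all tested genes), and 10 were at least 2-fold above the mean of WT A and WT B (41.7%, against 12.3%). None had fallen to a ratio of 0.5 or less, against 12.7% of all tested genes. The median ratio of WT C to the mean of WT A and WT B was 1.79 for the 24 genes and 1.00 over all tested genes. None of the 24 genes differed by 2-fold or more between WT A and WT B. Only 2.30% of all tested genes did, so this count does not set the 24 genes apart. This grouping of cultures was made after their values were seen and carries no test. WT C was also the deepest culture and the highest in immediate early genes, with Egr1 at 318 CPM against at most 7.11 CPM elsewhere. Among endothelial markers it was low in Cldn5 and Erg but not in all, as given above. The part of these in the levels above was not tested. In bulk RNA, more cells of a type and more RNA per cell cannot be told apart. K794Q B, the culture with the next highest levels of several of these genes, was at least 2-fold above the mean of K794Q A and K794Q C for Cnn2 and Cald1 (8.33%, against 7.44%).

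**Figure D2:**
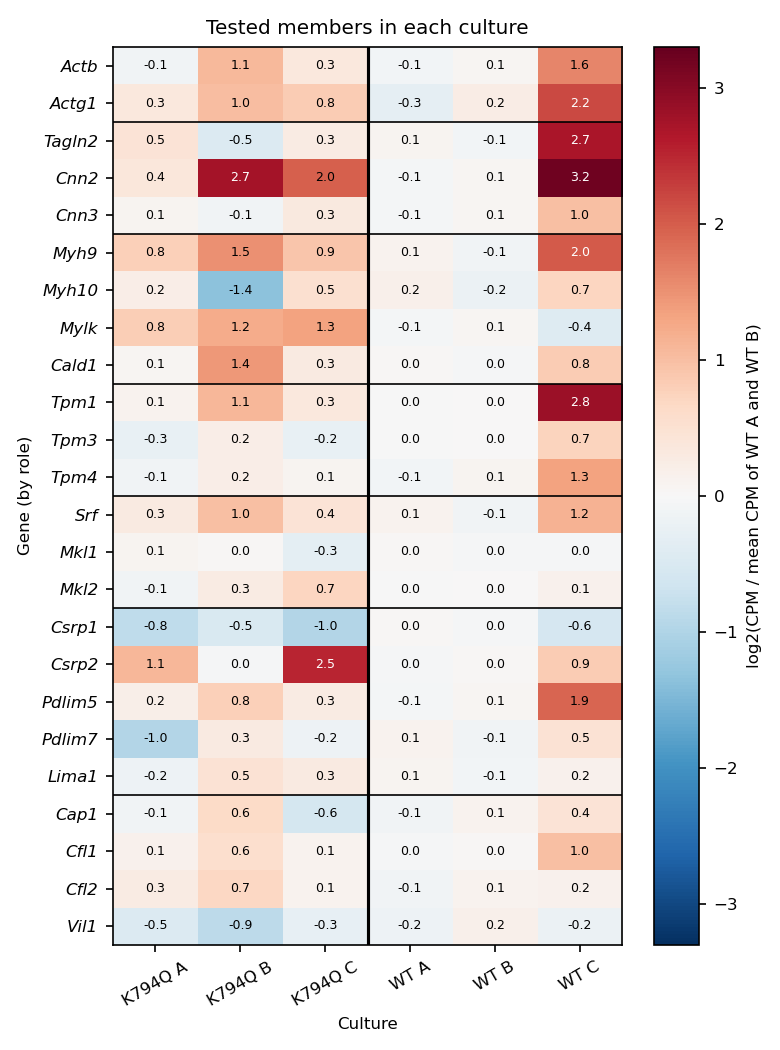
Level of the 24 tested genes (y axis, ordered by role, with lines between roles) in each culture (x axis) as log2 of CPM over the mean of WT A and WT B, with the value printed in each cell. WT C is the reddest column for actins, calponins, tropomyosins and Myh9, K794Q B follows for part of them, and Mylk is red in all 3 β1-K794Q-GFP cultures alone.

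Actb and Actg1 encode the cytoplasmic β- and γ-actin that build the stress fibres and cortex of non-muscle cells. Actb (chr5:142903115-142906754, GRCm38) was at 2116, 2355 and 6879.5 CPM in WT A, B and C and at 2065, 4709.6 and 2849 CPM in K794Q A, B and C. Actg1 was at 104, 150.4 and 575 CPM in WT A, B and C and at 161, 258 and 229 CPM in K794Q A, B and C. For both genes WT C was the highest culture, WT A and WT B lay at or near the bottom, and the groups overlapped. The log2 fold change, K794Q against WT, was -0.24 ± 0.59 (SE) for Actb and -0.35 ± 0.65 for Actg1, with adjusted p of 0.945 and 0.922 in edgeR's quasi-likelihood test. Without WT C these became 0.53 (adjusted p = 0.574) and 0.78 (adjusted p = 0.284), so that 1 culture set the direction. Per kilobase of exon, the mean level of Actb was 1971 CPM in β1-WT-GFP and 1671 CPM in β1-K794Q-GFP cells, and that of Actg1 was 142 and 111 CPM.

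The muscle actins were close to the limit of detection. Acta1, the skeletal muscle α-actin, was absent from WT A, WT B, K794Q A and K794Q B, with 55 counts in WT C and 20 counts in K794Q C. Acta2, the smooth muscle α-actin, had 17 counts in WT C and 0 in the other 5 cultures. Actg2, the enteric smooth muscle actin, had 2 counts in WT C, 1 in K794Q A and 0 in the others. Against a floor of 3 counts per library, Acta2 in WT C was at least 3.95-fold higher than in any other culture. The actin genes share long runs of coding sequence, of up to 77 bases between Acta1 and Actb, whose longest reading frames were 84.8% identical, and Actb and Actg1 shared a run of 62 bases at 88.7% identity. Low counts of Acta1 and Acta2 beside so abundant an Actb are therefore uncertain. Actb had 98784 counts in WT C, 47719 in K794Q B, where Acta1 and Acta2 had 0, and 33131 in K794Q C. The part of reads split between the genes was not tested.

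Tagln2, Cnn2 and Cnn3 are the transgelin and calponins of non-muscle cells, which bind along actin filaments. Tagln2 was at 65.2, 58.3 and 401 CPM in WT A, B and C and at 84.5, 45.2 and 74.6 CPM in K794Q A, B and C. Cnn2 was at 18.2, 20.1 and 177 CPM in WT A, B and C and at 24.6, 128 and 75.8 CPM in K794Q A, B and C. In both genes WT C was highest, by 6.50-fold and 9.26-fold over the mean of WT A and WT B, but they parted in K794Q B, which was the highest β1-K794Q-GFP culture for Cnn2 and the lowest for Tagln2. Cnn3 ranged from 83.7 to 113 CPM in 5 cultures and reached 181 CPM in WT C. The log2 fold changes were -1.36 ± 0.80 (adjusted p = 0.669) for Tagln2, 0.08 ± 1.02 (adjusted p = 0.987) for Cnn2 and -0.31 ± 0.32 (adjusted p = 0.844) for Cnn3 in edgeR's quasi-likelihood test. Without WT C, Cnn2 passed both thresholds, at a log2 fold change of 2.00 (unadjusted p = 0.0336, adjusted p = 0.264), and without K794Q B it was at -0.53. The smooth muscle forms Tagln and Cnn1 were all but absent, with Tagln at 26 counts in WT C and at most 3 elsewhere, and Cnn1 at 4 counts in WT C and at most 1 elsewhere.

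Mylk encodes myosin light chain kinase, which phosphorylates the regulatory light chain and so switches on myosin II. The gene (ENSMUSG00000022836.11, chr16:34745210-35002420, plus strand, GRCm38) was at 65.3, 71.5 and 51.0 CPM in WT A, B and C and at 121, 160.0 and 173 CPM in K794Q A, B and C. Every β1-K794Q-GFP culture lay above every β1-WT-GFP culture, a pattern shared by 8.45% of all tested genes, and WT C was the lowest culture here and not the highest. The means were 62.6 ± 10.5 CPM (SD, n = 3) and 151 ± 26.9 CPM (SD, n = 3). The log2 fold change was 1.27 ± 0.22 (SE), or 2.42-fold, with an unadjusted p of 0.000913 and an adjusted p of 0.103 in edgeR's quasi-likelihood test. The two-sided exact permutation test gave p = 0.1, the smallest that 3 against 3 cultures allow. Mylk passed both thresholds without any 1 of the 6 cultures, at log2 fold changes between 1.16 and 1.41. The adjusted p missed 0.05 by edgeR's quasi-likelihood test and passed it in DESeq2 (0.000119) and in edgeR's likelihood ratio test (0.00351).

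The genes around Mylk were read for comparison. Of 31 tested genes within 2 Mb on either side none passed both thresholds, and their median log2 fold change was 0.06. The single values ran from -1.27 (Itgb5) to 1.78 (Slc12a8), with 18 above 0. Gene-level counts do not separate the long kinase of endothelial cells, the short kinase of smooth muscle and telokin, all products of this gene. Antisense genes that overlap Mylk had at most 5 counts.

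The heavy chains of non-muscle myosin II, Myh9 (IIA) and Myh10 (IIB), did not follow Mylk. Myh9 was at 657, 558 and 2476 CPM in WT A, B and C and at 1043, 1728 and 1153 CPM in K794Q A, B and C. All 3 β1-K794Q-GFP cultures lay above WT A and WT B, and WT C lay above them all. Its log2 fold change was 0.09 ± 0.63 (SE, adjusted p = 0.979 in edgeR's quasi-likelihood test), and 1.12 without WT C (unadjusted p = 0.0127, adjusted p = 0.18), past both thresholds. Myh10 was at 164, 128 and 238 CPM in WT A, B and C and at 169, 56.9 and 210.1 CPM in K794Q A, B and C, so that K794Q B, high for Myh9, was the lowest culture for Myh10. Its log2 fold change was -0.29 ± 0.50. Per kilobase of exon, Myh9 exceeded Myh10 in both groups, at 166 against 20.5 CPM in β1-WT-GFP and 176 against 16.8 CPM in β1-K794Q-GFP cells.

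Caldesmon (Cald1), which restrains myosin on the filament, was at 521, 492 and 901 CPM in WT A, B and C and at 525, 1375 and 626 CPM in K794Q A, B and C. The highest culture was K794Q B, and the groups overlapped (log2 fold change 0.40 ± 0.46, adjusted p = 0.864 in edgeR's quasi-likelihood test). Myh11, the smooth muscle heavy chain, had between 1 and 4 counts in every culture. Myl9, a regulatory light chain that contractile cells usually carry, had 0 counts in all 6, which allows at most between 0.209 and 0.3 CPM per culture by counting error alone.

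**Figure D3:**
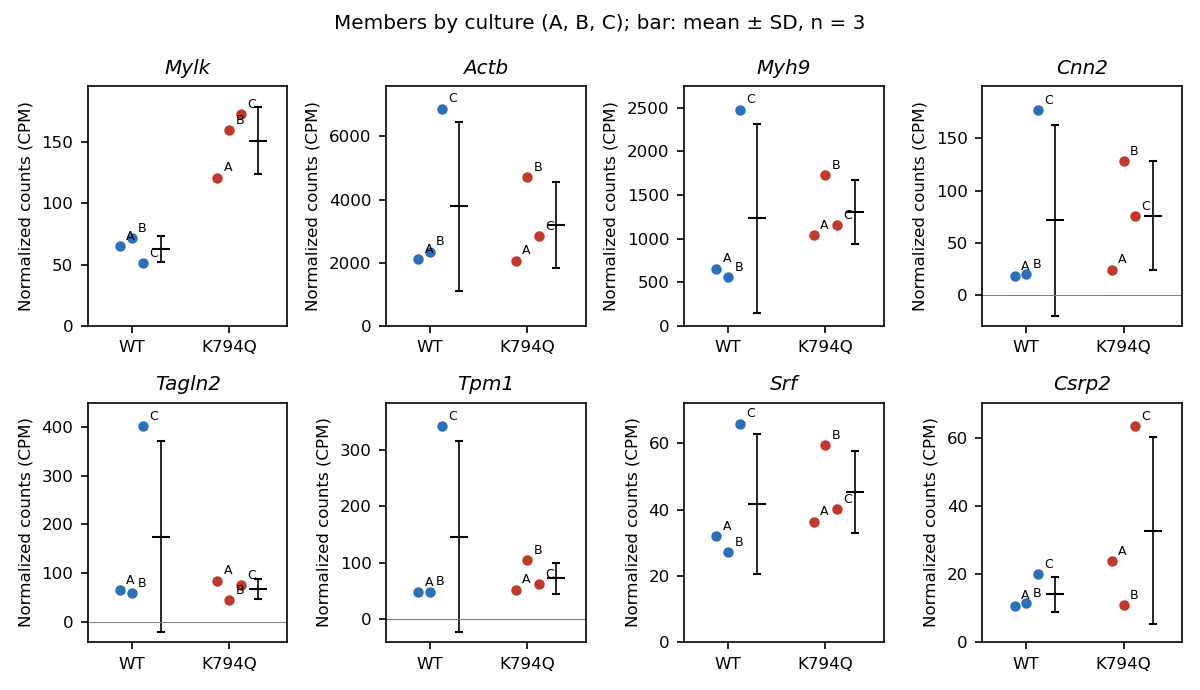
Normalized counts (CPM, y axis) of 8 genes in each β1-WT-GFP (blue) and β1-K794Q-GFP (red) culture, labelled A, B and C, with the mean ± SD (n = 3) beside the points. Mylk separates the groups, at 51.0 to 71.5 CPM against 121 to 173 CPM, whereas for Actb, Myh9, Cnn2, Tagln2, Tpm1 and Srf the single point of WT C lies above all others.

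Tropomyosins coil along actin filaments and set which myosins and severing proteins can reach them. Tpm4 was at 589.9, 666 and 1571 CPM in WT A, B and C and at 581, 729 and 665 CPM in K794Q A, B and C. Tpm1 was at 48.3, 48.7 and 341 CPM in WT A, B and C and at 52.1, 104 and 61.7 CPM in K794Q A, B and C. Tpm3 ranged from 307 to 422 CPM in 5 cultures and was at 604 CPM in WT C. WT C was the highest culture for all 3 tested tropomyosins, by 7.02-fold (Tpm1), 2.50-fold (Tpm4) and 1.65-fold (Tpm3) over the mean of WT A and WT B. The log2 fold changes were -1.01 ± 0.83 for Tpm1, -0.37 ± 0.29 for Tpm3 and -0.52 ± 0.42 for Tpm4, with adjusted p of 0.781, 0.772 and 0.781 in edgeR's quasi-likelihood test. Per kilobase of exon the order of the means was Tpm4 (443 CPM), Tpm3 (134 CPM) and Tpm1 (30.5 CPM) in β1-WT-GFP cells and the same, at 309, 104 and 15.2 CPM, in β1-K794Q-GFP cells. Tpm2, the muscle form, had 2 counts in WT C and 0 elsewhere. Muscle and non-muscle isoforms of 1 gene cannot be told apart in these counts.

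Srf itself followed the culture pattern. It was at 32.1, 27.2 and 65.9 CPM in WT A, B and C and at 36.4, 59.5 and 40.2 CPM in K794Q A, B and C. WT C was the highest culture, K794Q B came next, and WT A and WT B were the 2 lowest. Its log2 fold change was 0.12 ± 0.39 (SE, adjusted p = 0.961 in edgeR's quasi-likelihood test) and 0.62 without WT C (unadjusted p = 0.0625). The cofactor Mkl1 did not follow it, with 39.6 to 52.3 CPM over all 6 cultures and a log2 fold change of -0.05 ± 0.17. Mkl2 was at 150.1, 152 and 167 CPM in WT A, B and C and at 140.4, 183 and 246 CPM in K794Q A, B and C, with a log2 fold change of 0.28 ± 0.24 (adjusted p = 0.791) and overlapping groups. Myocardin (Myocd), the smooth and cardiac muscle cofactor, had 0 counts in all 6 cultures.

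The LIM domain proteins take part in adhesion and in filament cross-linking. Csrp1 was at 417, 393 and 276 CPM in WT A, B and C and at 228, 284 and 209 CPM in K794Q A, B and C. WT A and WT B were the highest, and WT C lay just below K794Q B, so that the groups overlapped by a single culture. The log2 fold change was -0.59 ± 0.24 (unadjusted p = 0.0468, adjusted p = 0.476 in edgeR's quasi-likelihood test), short of the 2-fold threshold, and -0.74 without WT C (adjusted p = 0.176). Of the 24 genes, Csrp1 was thus the only one other than Mylk with an unadjusted p of at most 0.05, in the opposite direction.

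Csrp2, its close relative, was at 10.8, 11.5 and 20.1 CPM in WT A, B and C and at 23.9, 10.9 and 63.6 CPM in K794Q A, B and C. K794Q A and C lay above all β1-WT-GFP cultures and K794Q B lay with the lowest. Its log2 fold change was 1.21 ± 0.65 (unadjusted p = 0.109, adjusted p = 0.626 in edgeR's quasi-likelihood test), and 1.63 without K794Q B (unadjusted p = 0.0219, adjusted p = 0.252), past both thresholds. Here the neighbours moved too. Csrp2 lies at chr10:110919789-110939622 (GRCm38), and 8 of 9 tested genes within 2 Mb had a log2 fold change above 0, with a median of 0.62 and 2 genes past both thresholds (Osbpl8, 1.38, and Nap1l1, 1.19). Over the WT mean, the median log2 ratio of the 9 neighbours was 0.75 in K794Q A, 0.29 in K794Q B and 0.77 in K794Q C. The part of this regional level in the values of Csrp2 was not tested.

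Pdlim5, an adaptor between actinin and kinases, was at 94.1, 104 and 375 CPM in WT A, B and C and at 114, 170.2 and 119 CPM in K794Q A, B and C, with WT C again the highest. Pdlim7 ranged from 45.5 to 123 CPM and Lima1, which slows filament disassembly, from 98.3 to 155 CPM, with log2 fold changes of -0.36 ± 0.34 and 0.18 ± 0.21. Fhl2, an SRF target and cofactor, had 82 counts in WT C, 3 counts in K794Q C, 1 in each B culture and 0 in each A culture. The 82 counts of WT C are 5.71 CPM, the highest level of any of the 11 genes left untested. Fhl1 had at most 5 counts.

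**Figure D4:**
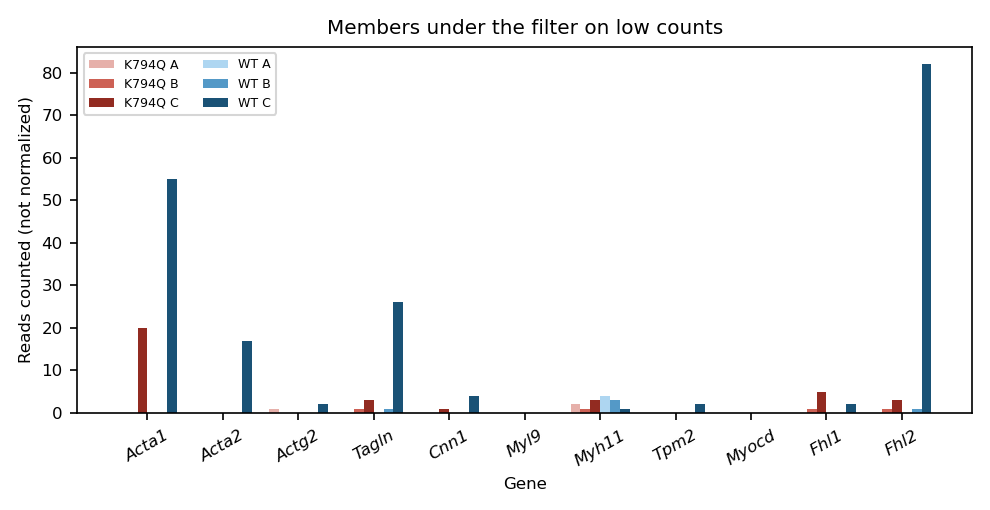
Reads counted, not normalized (y axis), for the 11 genes that failed the filter on low counts (x axis), 1 bar per culture, with β1-K794Q-GFP in reds and β1-WT-GFP in blues. Fhl2 (82 counts), Acta1 (55), Tagln (26) and Acta2 (17) stand out in WT C, and Myl9 and Myocd have no bar at all.

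None of the 4 genes of filament turnover and bundling passed the test. Cfl1, the main cofilin, which severs filaments, was at 498, 531 and 1021 CPM in WT A, B and C and at 564, 761 and 561 CPM in K794Q A, B and C. WT C was highest, at 1.98-fold over the mean of WT A and WT B, and the log2 fold change was -0.12 ± 0.35 (adjusted p = 0.955 in edgeR's quasi-likelihood test). Cap1, which recycles actin monomers, ranged from 317 to 722 CPM (log2 fold change -0.10 ± 0.35), and Cfl2, the muscle cofilin, from 69.5 to 122 CPM (0.33 ± 0.20). Vil1, a bundling protein of epithelial microvilli, was barely expressed, at 1.75, 2.20 and 1.74 CPM in WT A, B and C and at 1.44, 1.09 and 1.63 CPM in K794Q A, B and C. Its groups did not overlap, with β1-K794Q-GFP cells below (1 of 24 genes, against 8.12% of all tested genes), but its log2 fold change of -0.44 ± 0.38 had an adjusted p of 0.800 in edgeR's quasi-likelihood test.

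**Figure D5:**
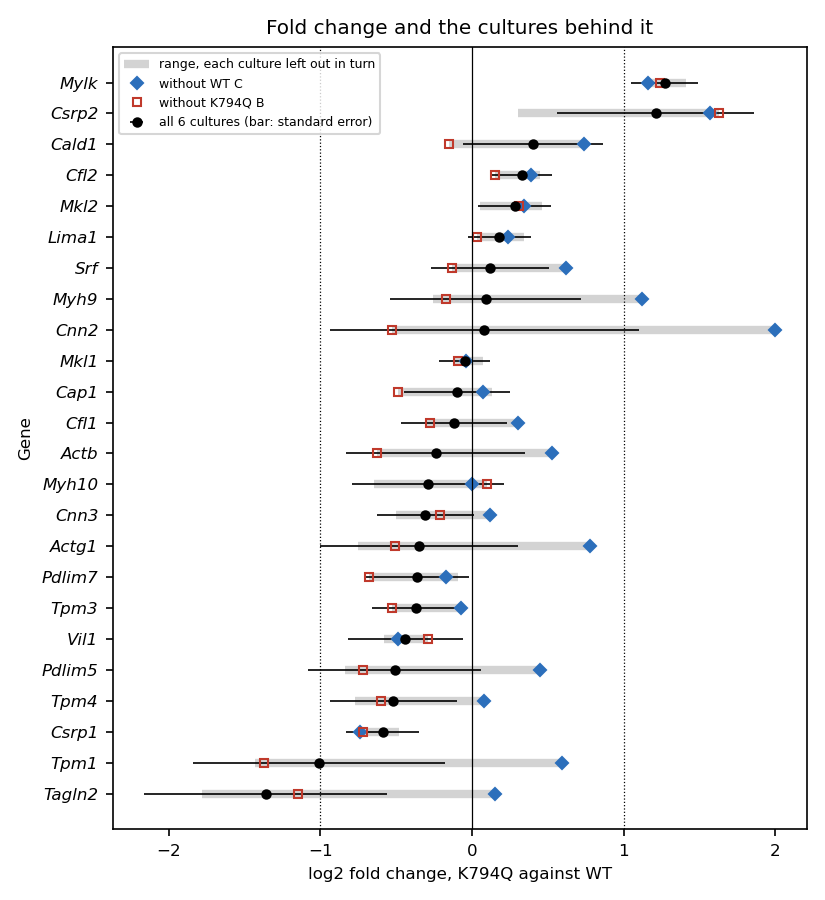
log2 fold change, K794Q against WT (x axis) for the 24 tested genes (y axis), with all 6 cultures (black, bar: SE), without WT C (blue diamonds), without K794Q B (red squares) and as the range over leaving out each culture in turn (grey). Dotted lines mark 2-fold. Mylk stays beyond 2-fold throughout, from 1.16 to 1.41, while Cnn2 runs from -0.53 to 2.00 and Tagln2 from -1.78 to 0.15.

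Leaving out WT C raised the number of genes past both thresholds from 1 to 3 (Mylk, Cnn2 and Myh9, all higher in β1-K794Q-GFP cells, 12.5%), beside a rise over all genes to 992 of 11844 (8.38%). Leaving out K794Q B gave 2 of 25 tested (Mylk and Csrp2), beside 942 of 11853 (7.95%). Leaving out any of the other 4 cultures gave Mylk alone, where 4.53% (K794Q A), 5.52% (K794Q C), 4.45% (WT A) and 4.21% (WT B) of all tested genes passed.

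Further genes of the pathway, in 3 lists, were read from the same fit. Of 26 other contractile and cytoskeletal SRF targets 19 were tested, and 2 passed both thresholds (10.5%, against 5.19% of all tested genes), both higher in β1-K794Q-GFP cells. Zyx (zyxin, of focal adhesions) was at 129, 127 and 175 CPM in WT A, B and C and at 337, 288 and 267 CPM in K794Q A, B and C, with a log2 fold change of 1.05 ± 0.21 (adjusted p = 0.145 in edgeR's quasi-likelihood test). Myl6, the essential light chain of myosin II, was at 96.7, 71.4 and 144 CPM in WT A, B and C and at 288, 255 and 388 CPM in K794Q A, B and C, with a log2 fold change of 1.58 ± 0.32 (adjusted p = 0.146). In both genes the groups did not overlap, with β1-K794Q-GFP cells above (2 of 19 genes, 10.5%, against 8.45% of all tested genes). Leaving out each culture in turn kept Myl6 past both thresholds in all 6 cases and Zyx in 3. Zyx lost the call without K794Q A, WT A or WT B, with log2 fold changes from 0.95 to 1.23 over the 6 cases.

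The culture pattern was read in the lists too. In this one WT C was the highest culture for 12 of the 19 genes (63.2%, against 26.0% of all tested genes) and at least 2-fold above the mean of WT A and WT B for 10 (52.6%, against 12.3%), and it was at or under a ratio of 0.5 for Smtn alone (5.26%, against 12.7%). Among the 10, Vcl (vinculin) was at 221, 271 and 1066 CPM in WT A, B and C and at 389.5, 953 and 375 CPM in K794Q A, B and C. Flna (filamin A) was at 893, 875 and 3441 CPM in WT A, B and C and at 602, 1285 and 1259 CPM in K794Q A, B and C. Vcl showed the same order of cultures as Srf at the top, WT C and then K794Q B. Vcl and Flna were picked as examples after their values were seen.

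Of 38 regulators of actin monomers and filaments 34 were tested, and 2 passed both thresholds (5.88%, against 5.19%). Gsn (gelsolin, which severs and caps filaments) was at 386, 437 and 186 CPM in WT A, B and C and at 183, 148 and 113 CPM in K794Q A, B and C. Only WT C, just above K794Q A, came close to the β1-K794Q-GFP cultures. Its log2 fold change was -1.18 ± 0.37 (adjusted p = 0.323 in edgeR's quasi-likelihood test), and it lost the call without K794Q C, WT A or WT B, with a range from -1.46 to -0.95. Lmo7, a junctional LIM domain protein, was at 79.4, 73.1 and 69.9 CPM in WT A, B and C and at 161, 406 and 74.6 CPM in K794Q A, B and C, with a log2 fold change of 1.53 ± 0.58 (adjusted p = 0.438). It overlapped through K794Q C, and it lost the call without K794Q B (0.68) and without any of the 3 β1-WT-GFP cultures. WT C was the highest culture for 15 of the 34 genes (44.1%, against 26.0%), but it was at least 2-fold above the mean of WT A and WT B for only 5 (14.7%, near the 12.3% of all tested genes) and at or under a ratio of 0.5 for 2, Gsn and Tmod1 (5.88%, against 12.7%).

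The list of 12 TCF cofactors and TCF-type SRF targets had 9 tested genes, of which 2 passed both thresholds (22.2%, against 5.19%), both lower in β1-K794Q-GFP cells. Junb was at 54.4, 38.1 and 105 CPM in WT A, B and C and at 20.5, 29.9 and 22.9 CPM in K794Q A, B and C, with a log2 fold change of -1.43 ± 0.40 (adjusted p = 0.273 in edgeR's quasi-likelihood test) that became -0.91 without WT C. Ier2 was at 49.6, 37.0 and 101 CPM in WT A, B and C and at 34.2, 35.0 and 22.8 CPM in K794Q A, B and C, with a log2 fold change of -1.03 ± 0.41 (adjusted p = 0.465), -0.49 without WT C. The groups did not overlap for Junb, Ier2 and Elk4, with β1-K794Q-GFP cells below (3 of 9 genes, 33.3%, against 8.12% of all tested genes). For both Junb and Ier2, however, WT C was the farthest culture. Junb lost the call without WT C alone, while Ier2 kept it only without WT B.

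Other immediate early genes, Egr1, Fos and Fosb, were high in WT C alone. WT C was at least 2-fold above the mean of WT A and WT B for 5 of the 9 tested genes (55.6%, against 12.3%). The 5 were these genes together with Junb and Ier2. WT C was at or under a ratio of 0.5 for none of the 9. Egr1 was at 2.89, 2.50 and 318 CPM in WT A, B and C and at 2.12, 7.11 and 1.72 CPM in K794Q A, B and C. Fos was at 0.525, 0.400 and 53.4 CPM in WT A, B and C and at 1.44, 7.11 and 0.946 CPM in K794Q A, B and C. WT C was thus more than 10-fold above every other culture for Egr1, while K794Q B came next for both genes, far below it. The TCF proteins themselves were not raised in WT C, with Elk4 at 375, 374 and 267 CPM in WT A, B and C and at 188, 199.7 and 181 CPM in K794Q A, B and C (log2 fold change -0.84 ± 0.21, adjusted p = 0.21 in edgeR's quasi-likelihood test, short of 2-fold). Egr1, Fos and Elk4 were picked after their values were seen.

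Markers of other cell types were read in the same cultures. Of 8 fibroblast markers 4 were detected, with a sum of 25.4 CPM in WT C and between 0.787 and 3.65 CPM in the other 5 cultures, and Dcn, Lum, Postn and Thy1 were at 0 in all. Pdgfra made up most of the WT C sum, at 16.4 CPM. Col1a1 and Col3a1 were also highest there, while Col1a2 was at 0 in WT C and highest in K794Q B. Of 8 pericyte markers 5 were detected, with a sum between 0.175 and 4.39 CPM, the highest in WT C, and Rgs5, Kcnj8 and Higd1b were at 0. Pdgfrb (2.30 CPM) and Anpep (1.74 CPM) made up most of the WT C sum. Abcc9 was detected in β1-K794Q-GFP cultures only, and Notch3 was highest in K794Q C. Of 8 markers of differentiated smooth muscle 6 were detected, with a sum between 48.1 CPM in WT C, the lowest, and 177 CPM, nearly all of it Smtn, and Des and Myocd were at 0. Of 7 skeletal muscle markers Acta1 alone was detected. The sums of 4 leukocyte markers (31.0 to 103 CPM, 3 detected) and of 5 epithelial markers (1.54 to 2.20 CPM, 3 detected) were not highest in WT C. Cd68 made up nearly all of the leukocyte sum and Vil1 most of the epithelial sum, so each rests mainly on 1 gene. Ptprc was at 0.279 CPM in WT C and at 0 elsewhere. The part of these markers, and of the high immediate early genes, in the levels of the actin genes of WT C was not tested.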

How the data were processed

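Total RNA of 3 cultures per group was depleted of ribosomal RNA and sequenced. The authors aligned the reads to the mouse genome with STAR and deposited raw counts per gene symbol. The submitters' processing notes name bcl2fastq 2.20.0, STAR 2.7.4a, HTSeq 0.9.1, edgeR 3.38.4 and build mm10. The gene annotation and strand setting are not given in the sources used here. Groups followed the transfection labels. No per-sample column was left out.

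The deposited counts were filtered with filterByExpr, normalized with TMM and tested with the two-sided quasi-likelihood F-test of edgeR 4.0.16 in R 4.3.3, the test named in the study's methods, with Benjamini-Hochberg adjustment over all 11608 tested genes. A gene passed where it changed by 2-fold or more with an unadjusted p no higher than 0.05. The SE is the log2 fold change over the root of its F statistic. CPM were normalized with TMM, and 3 counts were the floor for a count of 0, between 0.209 and 0.3 CPM per culture, for counting error only. The scripts were tested on simulated counts.

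The genes, lists and thresholds were chosen with earlier results of these data known. All 35 genes are named, and of each list every gene past both thresholds, up to 4. The results of 1 further list are not reported here. Positions and exon lengths came from GENCODE (GRCm38), promoters from RefSeq. Alternatives were other filters, RLE normalization, edgeR's likelihood ratio test, DESeq2 1.42.0, a block for the culture letter and leaving out each culture. Python 3.11.15 was used for tables and figures. HUVEC experiments were not analysed here.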

Additional observations from a re-analysis of the deposited data

How the results depend on the processing

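Over all genes, the number past both thresholds moved from 603 to 916 with no filter on low counts, and lay between 501 and 992 when each culture was left out. It was between 425 and 727 under the other settings, with 571 when the culture letter was a replicate block. Of the 35 genes, 1 (Mylk) passed under every setting that kept all 6 cultures, the block included, and between 1 and 3 passed when a culture was left out; of the genes of the 3 further lists, 6 passed, and between 4 and 8 under all settings. The adjusted p of Mylk lay between 0.000119 and 0.478.

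What the letters A, B and C stand for is not stated. The deviations of same-lettered cultures from their group means correlated at 0.0947, 0.0548 and 0.0952. Other pairs ran from -0.152 (K794Q C with WT B) to 0.0954 (K794Q A with WT B), most of them below 0. These values do not settle whether the letters mark pairs. With the block the log2 fold change of Actg1 turned from -0.35 to 0.05, and the block turned no other of the 24 genes.

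Leaving out each culture in turn changed the sign of 15 genes, whose log2 fold changes then ranged from -0.63 to 0.53 for Actb, -0.75 to 0.78 for Actg1, -1.78 to 0.15 for Tagln2, -0.53 to 2.00 for Cnn2, -0.50 to 0.12 for Cnn3, -0.26 to 1.12 for Myh9, -0.65 to 0.10 for Myh10, -0.15 to 0.74 for Cald1, -1.43 to 0.59 for Tpm1, -0.77 to 0.08 for Tpm4, -0.13 to 0.62 for Srf, -0.12 to 0.07 for Mkl1, -0.84 to 0.45 for Pdlim5, -0.49 to 0.13 for Cap1 and -0.31 to 0.30 for Cfl1. The cause was not tested. The counts of the 11 low genes are too few to compare the groups, and 3 cultures a group limit every p-value here.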
